A study of Mus musculus with 12 samples.

Results

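Nuclear receptor-binding and tribbles pseudokinases are proteins with the fold of a protein kinase but with changes at residues that a kinase needs for catalysis. They act mainly as scaffolds. The members, chosen by gene symbol, were Nrbp1, Nrbp2, Trib1, Trib2, Trib3 and Scyl2, and 6 of the 32494 genes in the deposited table are these rows. The set was proposed with results of the comparison described here already known, so the members' differences between groups are given as descriptions and were not tested as a hypothesis.

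Messenger RNA was sequenced from the hypothalamus of 12 male mice, and the labels give an age of 8 weeks. All 12 mice carried floxed Smc3 and received tamoxifen, and tissue was taken 5 weeks afterwards. The 7 mice called WT were Camk2a-cre/ERT2- and the 5 mice called cKO were Camk2a-cre/ERT2+. The titles of all 12 samples, in both groups, also carry the word control, and they do not say to what it refers. The Camk2a promoter is active mainly in excitatory neurons of the forebrain, where the Cre enzyme acts once tamoxifen is given. Where in this tissue recombination took place was not measured. Both groups had tamoxifen and floxed alleles, and the presence of the transgene and recombination at Smc3 cannot be told apart.

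The libraries held 17.1 to 24.01 M recovered reads, except WT 1 with 68.7 M. Smc3, a core cohesin subunit, went against the labels: its mean in normalized counts per 1e6 (CPM) was 81.6 ± 3.14 (SD, n = 7) under the WT label, and the cKO label had the higher mean, 131 ± 10.3 (SD, n = 5). Directions below therefore refer to the libraries labelled cKO. The deposited values are totals per gene, so Smc3 transcripts with and without the floxed part could not be told apart. Whether the labels of the groups were exchanged was not tested, and an exchange would turn every direction given here. Over 10 hypothalamic neuron markers, Otp, Nkx2-1 and Sim1 among them, the summed level was 39.2 to 135 CPM in WT and 73.0 to 177 CPM in cKO, with Rax under the minimum mean of 1 CPM. Nr5a1 had the lower mean in cKO (2.51 CPM in WT and 0.944 CPM in cKO), and the other markers of this list had the higher. Markers of thalamic neurons summed to 725 to 1485 CPM in WT and 454 to 843 CPM in cKO. In whole tissue, fewer cells of a type and less RNA per cell cannot be told apart.

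The NRBP proteins bind TSC22 domain proteins and WNK kinases, which set the activity of chloride cotransporters, and NRBP1 also serves as a substrate receptor of cullin ubiquitin ligases. Tribbles proteins bind the ubiquitin ligase COP1 and bring substrates such as C/EBP factors to it, and they also bind AKT and MEK1. Trib3 is switched on by the stress factors ATF4 and CHOP. SCYL2 is a protein of clathrin-coated vesicles, and in the mouse brain its loss is known to harm hippocampal neurons.

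Nrbp2 was lower and Trib2 was higher in the libraries labelled cKO, while Nrbp1, Trib1, Trib3 and Scyl2 had overlapping groups. A limma fit over all 15359 genes whose mean reached 1 CPM was used, on log2(CPM + 1), with an adjusted p-value under 0.05 as the threshold. In it 2 of the 5 tested members were past the threshold, 1 in each direction, beside 14.1% of all tested genes. The groups did not overlap for the same 2 members, beside 6.73% of all tested genes (3.52% higher and 3.2% lower in cKO). In the authors' deposited table Nrbp2 and Trib2 had an FDR under 0.05, as did 4.94% of all listed genes. Nothing is read from these counts, since the members were put together with this contrast known. The median log2 fold change was 0.01 over the 5 members and 0.01 over all tested genes.

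**Figure D1:**
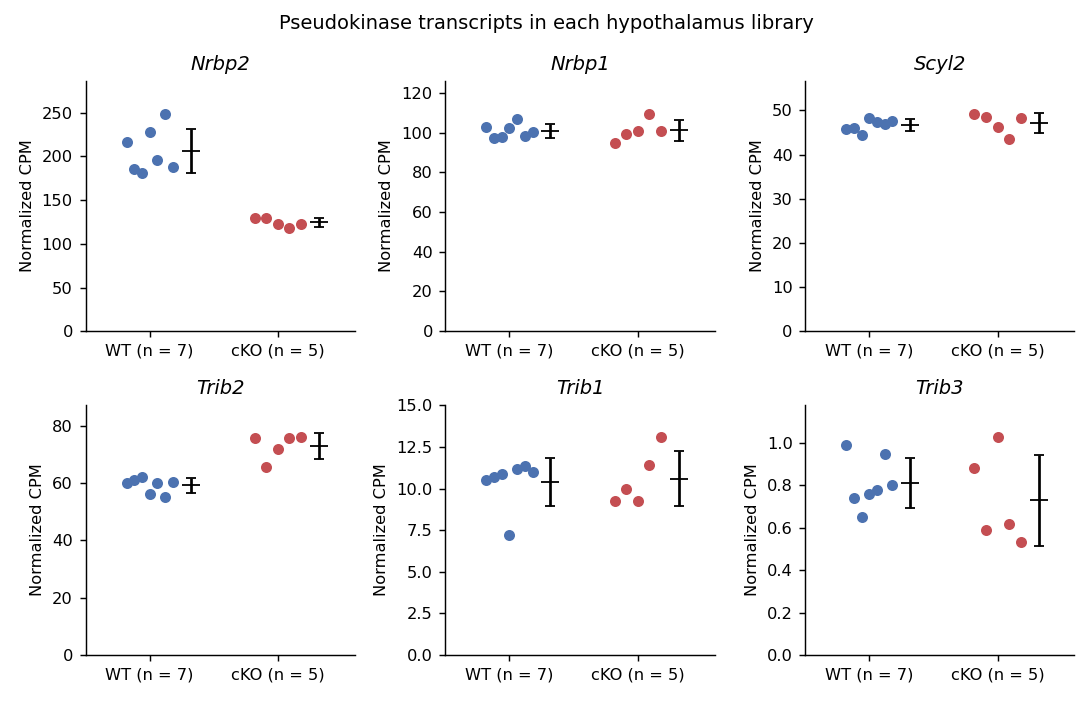
Normalized CPM of the 6 members, 1 point per library, with the mean and SD of each group at its right (7 WT, 5 cKO) and each vertical axis starting at 0. Nrbp2 lies at 118 to 129.95 CPM in all 5 cKO libraries and at 181 to 249 CPM in WT, Trib2 lies above all WT libraries in cKO, and the groups overlap for the other 4 genes.

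Nrbp2 encodes nuclear receptor-binding protein 2, a pseudokinase described in neural progenitors and differentiating neurons. It had the highest level of the 6 in CPM. In WT it ran from 181 CPM (WT 5) through a median of 195 CPM to 249 CPM (WT 11). In cKO it was at 129.86 CPM (cKO 8), 129.95 CPM (cKO 9), 123 CPM (cKO 12), 118 CPM (cKO 13) and 123 CPM (cKO 14). Every cKO library was thus below every WT library, and the WT libraries were spread more widely. The coefficient of variation of Nrbp2 was 12.4% in WT and 4.23% in cKO. The means were 206 ± 25.5 CPM (SD, n = 7) and 125 ± 5.27 CPM (SD, n = 5), a ratio of 0.604. The log2 fold change was -0.71 (SE 0.07, 95% interval -0.87 to -0.56). A fold change this low or lower was found for 77 of the tested genes, which is 0.501% of them. Between 2070 and 14867 reads per library stood behind Nrbp2. Its log2 fold change in the authors' deposited table was -0.73.

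Nrbp1 is the closest relative of Nrbp2. In WT it ran from 97.4 CPM (WT 4) through a median of 100.3 CPM to 107 CPM (WT 7). The cKO libraries were at 94.7 CPM (cKO 8), 99.5 CPM (cKO 9), 100.94 CPM (cKO 12), 109 CPM (cKO 13) and 100.79 CPM (cKO 14). The cKO libraries thus lay on both sides of the WT range, with cKO 8 below it and cKO 13 above it. Its log2 fold change was 0.00 (SE 0.04, 95% interval -0.08 to 0.09).

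Set against each other within a library, and per kilobase of annotated exon (GENCODE M21), Nrbp2 was at 1.87 ± 0.238 times Nrbp1 in WT (SD, n = 7; range 1.67 to 2.31). In cKO it was at 1.13 ± 0.102 times Nrbp1 (SD, n = 5; range 0.983 to 1.25). The 2 ranges did not overlap, and in cKO 13 the level of Nrbp2 per kilobase was below that of Nrbp1. This ratio uses no scaling between libraries. Its size depends on the lengths, which were 3894 bases of joined exons for Nrbp2 and 3559 for Nrbp1. The longest transcripts have 3220 and 2221 bases. With those lengths the ratio would be lower in both groups, and Nrbp2 would lie below Nrbp1 in cKO.

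The gene bodies of Nrbp2 and 2 predicted genes overlap in RefSeq (GRCm38.p6). Gm41349 had a mean of 2.15 CPM and Gm48952 of 0.0995 CPM, small beside Nrbp2. The strand setting of the counting is not given in the sources used here, so reads of antisense partners could not be separated. The nearest tested gene on either side of Nrbp2 was examined as well. Puf60, a splicing factor, was at 177 ± 4.78 CPM (SD, n = 7) in WT and 186 ± 6.08 CPM (SD, n = 5) in cKO, and BC024139 was at 4.58 ± 1.03 and 3.61 ± 1.25 CPM. Neither was past the threshold (limma adjusted p-values 0.178 and 0.266).

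Of the tribbles genes, Trib2 was the most abundant. Trib2 encodes a scaffold known for promoting the breakdown of C/EBP alpha in leukaemia. In WT it ran from 55.3 CPM (WT 11) through a median of 59.97 CPM to 62.3 CPM (WT 5). The 5 cKO values were 75.65 CPM (cKO 8), 65.7 CPM (cKO 9), 71.7 CPM (cKO 12), 75.68 CPM (cKO 13) and 75.9 CPM (cKO 14). All 5 cKO libraries lay above the WT range, with cKO 9 nearest to it. The means were 59.3 ± 2.61 CPM (SD, n = 7) and 72.9 ± 4.39 CPM (SD, n = 5), a ratio of 1.23. The log2 fold change was 0.29 (SE 0.05, 95% interval 0.20 to 0.39), and 260 tested genes (1.69%) had one as high or higher. Between 1237 and 4120 reads per library stood behind Trib2, and the authors' deposited table lists it at 0.30 on the log2 scale. The 2 genes that overlap Trib2, Mir6387 and Gm5432, had means of 0.00822 and 0.478 CPM.

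Trib1, known for its part in liver lipid metabolism and in macrophages, was at 7.21 CPM in WT 6, with a median of 10.9 CPM and a highest value of 11.4 CPM in WT. In cKO it was at 9.23 CPM (cKO 8), 9.95 CPM (cKO 9), 9.28 CPM (cKO 12), 11.4 CPM (cKO 13) and 13.1 CPM (cKO 14). The groups overlapped, and the lowest library was a WT library while the highest was a cKO library. The log2 fold change was 0.02 (SE 0.11, 95% interval -0.21 to 0.26).

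Trib3 was near the limit of detection. It ran from 0.651 CPM (WT 5) through a median of 0.779 CPM to 0.989 CPM (WT 1) in WT. The cKO libraries stood at 0.881 CPM (cKO 8), 0.588 CPM (cKO 9), 1.03 CPM (cKO 12), 0.617 CPM (cKO 13) and 0.533 CPM (cKO 14). These levels were 9 to 68 reads, above a floor of 3 reads (0.0436 to 0.178 CPM), which covers counting error only. The cKO values fell on both sides of the WT range. With a mean of 0.776 CPM over the 12 libraries, Trib3 was under the minimum and was not tested. In a fit without the minimum its log2 fold change was -0.07 (SE 0.08, 95% interval -0.24 to 0.10). The authors' deposited table lists Trib3 at -0.17.

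Per kilobase of annotated exon, Trib2 gave 87.0% ± 1.39 (SD, n = 7) of the tribbles signal in WT and 89.2% ± 0.725 (SD, n = 5) in cKO. The ranges of this share overlapped, at 84.9% to 89.5% and 88.2% to 90.2%. WT 6, where Trib1 was lowest, had the highest share in WT.

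RefSeq promoter entries (GRCm38.p6) matched 3 of the 6 members, which were Nrbp1, Trib2 and Trib3; Nrbp2, Trib1 and Scyl2 had no entry. The 250 bases before the start are shown for Trib2, the tribbles gene that was higher in cKO, and for Trib3, the one at the lowest level, 5′ to 3′ on the strand of the gene. The Trib2 stretch is at chr12:15816786-15817035 and that of Trib3 at chr2:152344061-152344310, both on the minus strand. Capitals mark the GC box GGGCGG, searched on both strands.
Trib2: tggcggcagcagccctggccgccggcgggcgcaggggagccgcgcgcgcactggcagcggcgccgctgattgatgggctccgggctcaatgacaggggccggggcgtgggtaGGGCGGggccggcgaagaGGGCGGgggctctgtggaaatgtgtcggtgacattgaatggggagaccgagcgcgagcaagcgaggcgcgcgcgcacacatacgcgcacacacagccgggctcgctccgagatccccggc
Trib3: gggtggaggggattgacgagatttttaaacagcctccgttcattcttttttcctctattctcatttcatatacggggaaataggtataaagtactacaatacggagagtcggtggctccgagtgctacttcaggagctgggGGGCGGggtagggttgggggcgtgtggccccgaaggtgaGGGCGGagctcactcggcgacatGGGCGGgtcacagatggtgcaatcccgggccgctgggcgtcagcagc

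The Trib2 stretch held 2 GC boxes and 34 CpG pairs, and the Trib3 stretch held 3 GC boxes and 16 CpG pairs, where 32.7% of 32817 promoter stretches of this length hold a GC box. By CpG count Trib2 stood at percentile 97.0 of these stretches and Trib3 at 76.5. The letters AGGGGGC (a CTCF core) and TGATGNAA (an ATF4 and C/EBP composite), searched on both strands, had 0 matches in either window, and 9.43% and 3.45% of all stretches hold them. These matches describe letters only.

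Scyl2 differed little among the libraries. In WT it ran from 44.5 CPM (WT 5) through a median of 47.0 CPM to 48.2 CPM (WT 6). In cKO it was at 49.3 CPM (cKO 8), 48.6 CPM (cKO 9), 46.3 CPM (cKO 12), 43.4 CPM (cKO 13) and 48.2 CPM (cKO 14). The groups overlapped, and its coefficient of variation over the 12 libraries was 3.69%. The log2 fold change was 0.01 (SE 0.04, 95% interval -0.07 to 0.10). Next to it in gene order lies Slc17a8, the vesicular glutamate transporter VGLUT3, which was at 8.73 ± 1.55 CPM (SD, n = 7) in WT and 4.13 ± 0.793 CPM (SD, n = 5) in cKO. Slc17a8 fell by 0.92 on the log2 scale (SE 0.12, limma adjusted p-value 0.00181), and its groups did not overlap. On the other side of Scyl2, 1500026H17Rik was not past the threshold (limma adjusted p-value 0.570).

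The nearest tested neighbours of the other members were examined too. Of Ppm1g and Krtcap3 beside Nrbp1, Nsmce2 and Lratd2 beside Trib1, Lratd1 and Lpin1 beside Trib2, and Rbck1 and Gm14164 beside Trib3, Lratd1 alone was past the threshold. Lratd1 fell by 0.19 on the log2 scale (SE 0.06, limma adjusted p-value 0.0421), with means of 52.4 ± 3.09 CPM in WT (SD, n = 7) and 45.8 ± 3.87 CPM in cKO (SD, n = 5), while its neighbour Trib2 was higher. The groups of Lratd1 overlapped. Slc17a8 and Lratd1 were the only neighbours of members past the threshold, beside 14.1% of all tested genes. Slc17a8 was the only neighbour whose groups did not overlap, beside 6.73% of all tested genes.

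Ordered by CPM per kilobase of annotated exon, Nrbp2 came first, at 52.9 ± 6.55 in WT and 31.985 ± 1.35 in cKO. Nrbp1 followed at 28.4 ± 1.14 (SD, n = 12), then Trib2 at 13.7 ± 0.601 in WT and 16.8 ± 1.01 in cKO. Scyl2 was at 4.64 ± 0.171, Trib1 at 1.68 ± 0.233 and Trib3 at 0.365 ± 0.0760 (each SD, n = 12). Over the 12 libraries Nrbp2 (lowest 30.2, in cKO 13) and Nrbp1 (highest 30.8, also in cKO 13) were the only neighbours in this order whose ranges met. With the longest transcripts as lengths, Nrbp1 would come before Nrbp2 in cKO.

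The sizes of these differences were recomputed under other scalings, filters and tests. The log2 fold change of Nrbp2 lay between -0.75 and -0.65 over 14 other settings and between -0.74 and -0.67 over the fits that each left out 1 library. That of Trib2 lay between 0.24 and 0.32, and between 0.28 and 0.33. Those of Nrbp1 lay between -0.03 and 0.09 and those of Scyl2 between -0.04 and 0.05. Trib1 moved most, from -0.01 to 0.22, with the highest value when scores of thalamic and hypothalamic markers were covariates.

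**Figure D2:**
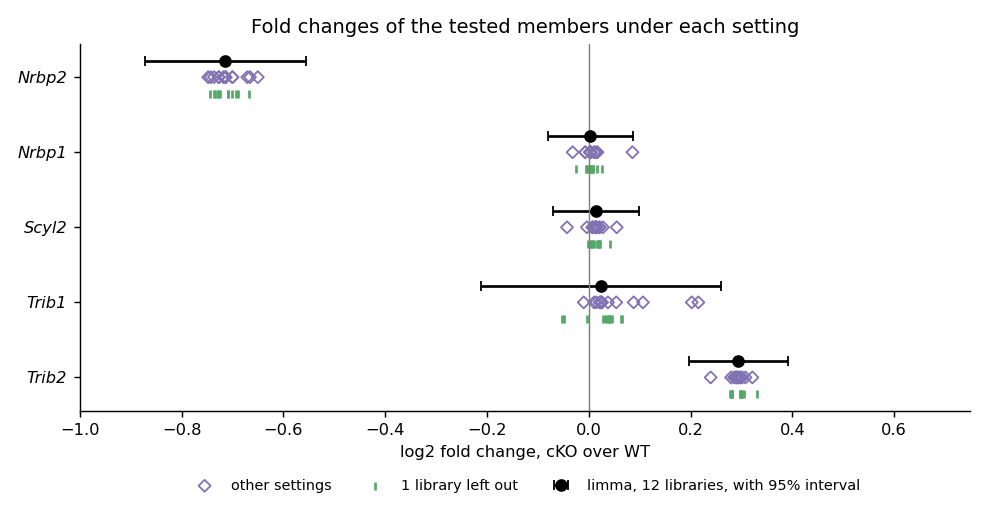
log2 fold change of the 5 tested members, cKO over WT. Filled circles show the limma fit on 12 libraries with its 95% interval, diamonds the other settings and ticks the fits with 1 library left out. Nrbp2 stays between -0.75 and -0.65 and Trib2 between 0.24 and 0.33, while the other 3 genes lie around 0 and Trib1 reaches 0.22.

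Marker scores, averages of log2(CPM + 1) over the genes of a list, moved with the groups in some lists. The thalamic score was 5.61 to 6.73 in WT and 4.80 to 5.84 in cKO, and 5 of its 11 genes were past the threshold, all lower. Of 9 tested hypothalamic markers 1 was past it, Sim1, which was higher (limma adjusted p-value 0.0206). With the thalamic score as a covariate the log2 fold change was -0.65 (SE 0.10) for Nrbp2 and 0.28 (SE 0.06) for Trib2. The oligodendrocyte score overlapped, at 7.35 to 8.54 and 7.57 to 8.49, and as a covariate it left Nrbp2 at -0.70 and Trib2 at 0.29.

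The score of oligodendrocyte precursors (Pdgfra, Cspg4 and Gpr17) was 5.62 to 5.78 in WT and 5.78 to 6.04 in cKO, with 2 of the 3 genes past the threshold and higher. The group held 64.9% of the variance of this score, 42.2% of that of the thalamic score and 0.781% of that of the oligodendrocyte score. It also held 40.5% for microglia (4.49 to 4.71 in WT and 4.64 to 4.75 in cKO, 0 of 8 genes past the threshold) and 28.7% for the neuron list (8.94 to 9.15 and 9.09 to 9.26, 1 of 6 genes past it and higher). Neither of those 2 scores was used as a covariate. The precursor score was made a covariate once the data had been seen. With it the log2 fold change of Nrbp2 was -0.75 (SE 0.13) and that of Trib2 was 0.30 (SE 0.08). In that fit 0 members were past the threshold, as were 2 of all 15359 genes, while 2712 genes had an unadjusted limma p-value under 0.05 (4773 without the covariate). The standard errors were larger than the 0.07 and 0.05 without the covariate. Both the thalamic and the precursor score come from the same libraries and moved with the groups, so these fits cannot fully tell group and score apart. The part of the cells behind these scores in the differences of Nrbp2 and Trib2 was not tested.

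**Figure D3:**
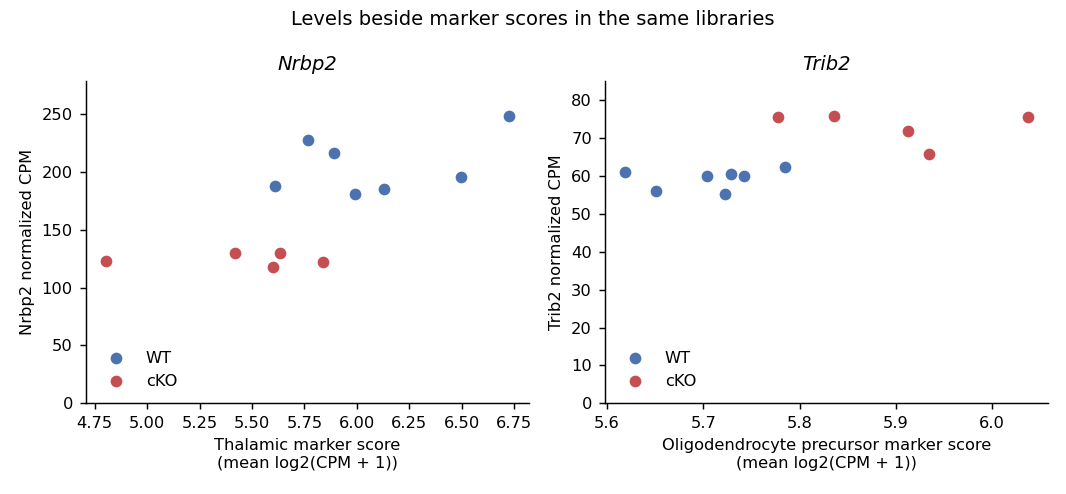
Left, normalized CPM of Nrbp2 against the thalamic marker score; right, normalized CPM of Trib2 against the oligodendrocyte precursor score. Each point is 1 library (7 WT, 5 cKO), and vertical axes start at 0. The thalamic scores run from 5.61 to 6.73 in WT and from 4.80 to 5.84 in cKO, and the precursor scores of the groups meet only near 5.78.

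Genes around the members were compared through 6 lists, of binding partners, of the pathways they work in and of other pseudokinases, with 84 genes in all, of which Cul4a, Ddb1 and Rbx1 stand in 2 lists. Counts are to be read beside the 14.1% of all tested genes past the threshold, with 6.54% higher and 7.6% lower. With median centring 1377 genes were higher and 1054 lower, and with the GC and length correction 1318 and 862, where the fit described above had 1004 and 1168. With the thalamic score as a covariate 0 genes of these lists were past the threshold, where 688 of all 15359 tested genes were, and with the precursor score 0, where 2 of all tested genes were. Standard errors were larger in most cases. With the thalamic score the log2 difference was 0.14 for Tsc22d1, 0.21 for Rbx1, 0.21 for Elob, 0.16 for Cul2, 0.18 for Cop1 and 0.14 for Ryk. In the same fit it was -0.20 for Wnk2, -0.42 for Atf3, -0.175 for Strada and -0.11 for Peak1. With the precursor score it was 0.14 for Tsc22d1, 0.24 for Rbx1, 0.19 for Elob, 0.18 for Cul2, 0.12 for Cop1 and 0.24 for Ryk, and -0.34 for Wnk2, -0.37 for Atf3, -0.19 for Strada and -0.26 for Peak1.

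The TSC22 and WNK list, the partners of the NRBP proteins with the cotransporters downstream, had 2 of 16 genes past the threshold (12.5%) and a median log2 fold change of 0.03. Wnk2, a neuronal member of the WNK kinases, fell from 162 to 136 CPM (log2 difference -0.25, SE 0.06, limma adjusted p-value 0.0226). With the GC and length correction Wnk2 was at -0.10 and not past the threshold (limma adjusted p-value 0.138). Tsc22d1, a transcriptional regulator that binds NRBP1, rose from 338 to 373 CPM (log2 difference 0.14, SE 0.03, limma adjusted p-value 0.0134), and was at 0.24 with that correction. Wnk1 (0.03), Stk39 (0.07) and the potassium-chloride cotransporter Slc12a5 (-0.04) were not past the threshold.

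The cullin ligase list, which holds the parts that NRBP1 works with and its substrates Itm2b and Itm2c, had 3 of 8 genes past the threshold (37.5%), all higher, with a median log2 fold change of 0.12. They were Rbx1, the RING subunit, at 0.19 (SE 0.05, limma adjusted p-value 0.0149), the adaptor Elob at 0.17 (SE 0.05, limma adjusted p-value 0.0372) and the scaffold Cul2 at 0.15 (SE 0.04, limma adjusted p-value 0.0180). Elob lost the threshold in 7 of 12 fits with a single library removed (cKO 8, cKO 9, cKO 13, WT 1, WT 6, WT 11 or WT 15), with limma adjusted p-values up to 0.0948. It also lost it without a filter on low values (limma adjusted p-value 0.0625) and in eBayes without trend (0.0517). Itm2b (0.12, limma adjusted p-value 0.0841) and Itm2c (0.05) were not past it.

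Among 13 partners of tribbles proteins 2 were past the threshold (15.4%), both higher, with a median log2 fold change of 0.05. Cop1, the ubiquitin ligase that tribbles proteins dock to, rose from 22.7 to 25.9 CPM (log2 difference 0.19, SE 0.04, limma adjusted p-value 0.0169), and Rbx1 is given above. The C/EBP substrates Cebpa (-0.10) and Cebpb (0.06), the kinases Akt1 (0.04) and Akt2 (0.05), and Map2k1 (0.05), which encodes MEK1, were not past it.

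Of 15 genes of the ATF4 and CHOP stress response, the programme upstream of Trib3, 1 was past the threshold (6.67%), and the median log2 fold change was 0.04. Atf3, an activity and stress-induced factor, fell from 1.21 to 0.725 CPM (log2 difference -0.35, SE 0.09, limma adjusted p-value 0.0253). Its mean over the 12 libraries was just above the 1 CPM minimum, which it reached through the WT libraries alone, so this call is given as a description and carries no weight for the list. At this low level the added 1 CPM shrinks the difference, which was -0.66 with a pseudocount of 0.1, -0.73 by edgeR and -0.74 by DESeq2; with quantile normalization it was -0.24 and not past the threshold (limma adjusted p-value 0.120). Atf3 lost the call when cKO 9, cKO 12 or WT 1 was left out, with a highest limma adjusted p-value of 0.0559. Atf4 (0.05), Ddit3, which encodes CHOP (0.06), Chac1 (0.06) and Asns (0.06) were not past it.

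Of 13 clathrin and adaptor genes, the surroundings of SCYL2, limma placed 0 past the threshold, with 8 at an unadjusted p-value under 0.05, which 31.1% of all tested genes had, and a median log2 fold change of 0.08; DESeq2 on recovered reads placed 2 past it and edgeR 0. The count moved with the scaling and weighting: limma placed 5 past it with the GC and length correction, 5 with arrayWeights, 2 with median centring and 2 with the oligodendrocyte score as a covariate. Cltc, the clathrin heavy chain, was at 0.08 and Ap1g1 at 0.10 (limma adjusted p-values 0.196 and 0.0548).

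Of 21 tested pseudokinases outside the 6, 3 were past the threshold (14.3%), and the median log2 fold change was -0.06. Peak1, a scaffold of the cytoskeleton, fell by 0.36 on the log2 scale (SE 0.09, limma adjusted p-value 0.0239) and Strada, a partner of the kinase LKB1, fell by 0.20 (log2, SE 0.06, limma adjusted p-value 0.0385). Ryk, a Wnt receptor, rose by 0.19 (log2, SE 0.06, limma adjusted p-value 0.0458). With a single library removed, Strada lost the threshold in 7 of 12 fits (cKO 8, cKO 9, cKO 14, WT 1, WT 6, WT 7 or WT 11) and Ryk in 10, all but those without cKO 9 or WT 5. Both also lost it without a filter on low values (limma adjusted p-values 0.0634 and 0.0751), and Ryk in eBayes without trend (0.0543). Peak1 lost it without cKO 8 or cKO 12, with limma adjusted p-values of 0.0537 and 0.0510. With the thalamic score as a covariate Peak1 was at -0.11 (limma adjusted p-value 0.337), with both thalamic and hypothalamic scores at -0.10, and with the GC and length correction at -0.30 (limma adjusted p-value 0.0556). Scyl3 (-0.06), a relative of Scyl2, was not past the threshold.

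**Figure D4:**
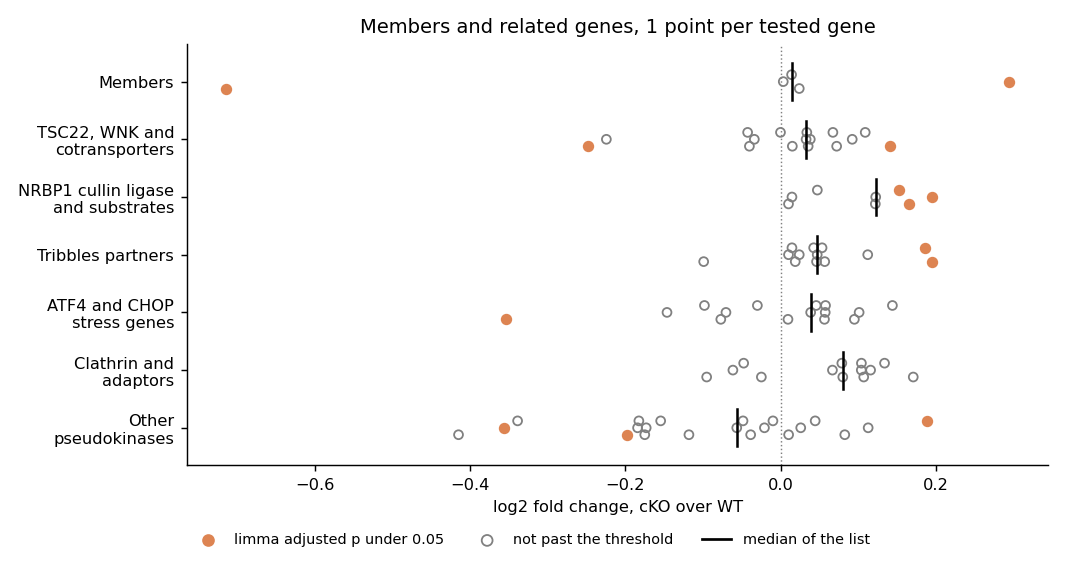
log2 fold change, cKO over WT, of every tested gene in the members and the 6 related lists, 1 point per gene; filled points passed a limma adjusted p-value of 0.05 and black bars are list medians. Nrbp2, at -0.71, and Trib2, at 0.29, lie at the outer ends, and list medians run from -0.06 to 0.12.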

How the data were processed

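The authors deposited normalized CPM for 32494 genes in 12 libraries, and a comparison table that lists, per gene, log2 values (fold change and mean CPM), a p-value and an FDR. FastQC 0.11.9, STAR 2.7.9a, Subread and featureCounts are named per the submitters' processing notes; build, annotation and strand setting are not given in the sources used here. Library columns were matched by name. Deposited CPM were whole multiples of 1 step per library (100% within 0.01), so whole reads were recovered. Replicates differed beyond sampling noise (chi-square per degree of freedom 3.04 to 26.3 over 31 pairs). The labels do not say how mice were bred or batched, so litter and batch could not be entered in the fits. The p-values set the difference between groups against the spread between mice within groups.

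limma 3.58.1 (R 4.3.3, lmFit, eBayes with trend, no covariate) was run on log2(CPM + 1) for genes whose mean reached 1 CPM, with Benjamini-Hochberg adjustment over 15359 genes; this scale understates changes of low genes. It was tested on simulated data, with the same dispersion for all genes and changes larger than those of the members and list genes. That test does not speak to changes of the sizes given here. Alternatives were edgeR 4.0.16 (quasi-likelihood) and DESeq2 1.42.0 on recovered reads, other pseudocounts, filters and scalings, arrayWeights, marker scores as covariates, correction for GC content and length (GENCODE M21, 94.5% of tested genes matched), and leaving out each library with the gene filter kept. Members and lists were chosen with earlier results of these data known. Named were all members, Smc3, up to 4 genes past the threshold per list, nearest tested neighbours, and the 3 most similar genes per member; Slc12a5, Itm2b and other genes named as not past the threshold were chosen for their role.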

Additional observations from a re-analysis of the deposited data

Results flagged for a closer look

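In 56 groups of values (members, Smc3, named list genes, marker scores and depth, each within WT or cKO), 5 had a library far from the rest, where chance gives about 2.8. Trib1 was at 7.21 CPM in WT 6, below the next WT library at 10.5 CPM, and leaving WT 6 out took its log2 fold change from 0.02 to -0.05. Wnk2 was at 117 CPM in cKO 13, with the next cKO library at 139 CPM. Cop1 was at 25.1 CPM in WT 7, above the next WT library at 22.9 CPM. The neuron marker score was 9.26 in cKO 13, with the next at 9.14. Depth was 68.7 M reads in WT 1, with the next at 24.01 M.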

How the results depend on the processing

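No paired analysis was possible because the numbers in the WT labels and those in the cKO labels have none in common. Nrbp2 and Trib2 kept their direction in every setting run, and of the settings run it was the precursor score, added after the data were seen, that took both below the threshold (-0.75 and 0.30); it left 0 members and 2 genes in all past it. Directions of values near 0 turned: Nrbp1 was at -0.0071 with quantile normalization, -0.0318 with arrayWeights and -0.0069 by DESeq2, Trib1 at -0.01 with arrayWeights, and Scyl2 at -0.0038 with the GC and length correction and -0.0428 with the precursor score. Leaving out 1 library gave Nrbp1 from -0.0257 to 0.0261, Trib1 from -0.0534 to 0.0659 and Scyl2 from -0.0019 to 0.0425. Over all tested genes 2172 passed, against 5126 with arrayWeights, 688 with the thalamic score, 1446 with the thalamic and hypothalamic scores, and 1161 (without WT 1) to 2309 with 1 library left out. In the order TSC22 and WNK, cullin ligase, tribbles partners, stress, clathrin and other pseudokinases, the lists held 2, 3, 2, 1, 0 and 3 such genes. With the thalamic score each list held 0, and with the precursor score each held 0, with log2 differences that were larger for some genes (Rbx1 0.21 and 0.24) and smaller for others (Peak1 -0.11 and -0.26). With both thalamic and hypothalamic scores the TSC22 and WNK, tribbles partner, stress, clathrin and other pseudokinase counts were 0, 1, 0, 1 and 1. With arrayWeights the cullin ligase, clathrin and other pseudokinase counts were 5, 5 and 8. The GC and length correction gave 1 for TSC22 and WNK and 5 for clathrin. The stress count was 0 with quantile normalization and 0 at a minimum mean of 5 CPM. The clathrin count was 2 with median centring, 2 with the oligodendrocyte score and 2 by DESeq2. The other pseudokinase count was 1 without a filter and 5 by DESeq2, and the cullin ligase count was 2 without a filter and 2 in eBayes without trend. With 1 library left out the cullin ligase count was 2 to 3, stress 0 to 1, clathrin 0 to 1 (1 without cKO 8) and other pseudokinases 0 (without cKO 8) to 4 (without WT 5). For named list genes 193 of 259 values stayed past the threshold and 66 did not. What causes these shifts was not tested. Among the members, Trib3 had the fewest reads, down to 9 in cKO 14.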

Other observations

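For each tested member the 3 genes most like it were found by Pearson's r of log2(CPM + 1) after the group means were subtracted, over the 12 libraries and among genes whose mean reached 5 CPM. These are the highest of many values, libraries share their scaling, and they are given without a p-value. Of all tested genes 14.1% were past the threshold and 6.73% had groups that did not overlap. Phka2 (0.94), Bmp1 (0.93) and Dbn1 (0.93) were most like Nrbp2. Phka2, a subunit of phosphorylase kinase, was at 45.0 ± 4.08 CPM (SD, n = 7) in WT and 34.8 ± 1.84 CPM (SD, n = 5) in cKO. Bmp1, a procollagen protease, was at 39.3 ± 5.97 and 28.001 ± 1.98 CPM. In neither gene did the groups overlap, and both were past the threshold and lower in cKO (limma adjusted p-values 0.00435 and 0.00833), while Dbn1, which encodes the actin-binding protein drebrin, was at 181 ± 26.1 and 174 ± 18.5 CPM with overlapping groups.

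Sptssa (0.90), Mzt1 (0.88) and Hsd17b11 (0.87) were most like Trib2. Their groups overlapped, and Sptssa and Hsd17b11 were past the threshold and higher in cKO (log2 fold changes 0.21 and 0.25, limma adjusted p-values 0.0290 and 0.0421). Sptssa, a subunit of serine palmitoyltransferase, was at 24.9 ± 1.31 CPM (SD, n = 7) in WT and 29.0 ± 2.50 CPM (SD, n = 5) in cKO. The genes most like Nrbp1 were Sdc4 (0.92), Gjb6 (0.91) and Ube2g2 (0.91). Those most like Trib1 were Zfp644 (0.94), Gm10509 (0.94) and Ddx10 (0.90), and those most like Scyl2 were Ski (0.96), Sh3rf1 (0.96) and Foxo6 (0.94).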
